A study of Mus musculus with 7 samples.

Results

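Pax6, Nes, Vim, Tubb3, Otx2, Pou3f1 and Fgf5, 7 genes commonly read as markers of exit from the embryonic stem cell state, were followed in chromatin-associated RNA sequencing (ChrRNA-seq) of undifferentiated female mouse embryonic stem cells (mESCs). The members were chosen by name, and all 7 were present among the 22556 genes of the 7 count files. ChrRNA-seq sequences RNA that stays bound to chromatin, so a large part of it is unspliced RNA still being transcribed. Each line is 1 clone of F1 cells whose parental genomes are 129/Sv (Dom, from Mus musculus domesticus) and CAST/EiJ (Cast), and both lines carry a doxycycline-inducible TetOn promoter in place of the Xist promoter. It lies on the Dom X chromosome in iXist-ChrX-Dom (n = 4) and on the Cast X chromosome in iXist-ChrX-Cast (n = 3). All libraries were labelled as 10 days in doxycycline at 1 µg/mL, in serum with LIF. The cells had been grown on inactivated mouse fibroblasts, which were depleted by pre-plating, and fibroblasts may remain. No uninduced and no differentiated sample was analysed here, so a level is not a change on induction or on differentiation.

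The genes fall into 3 groups by role. Otx2 and Pou3f1 encode transcription factors of the primed and formative epiblast, the state between naive pluripotency and lineage choice, and Fgf5 encodes a growth factor that is the classical marker of that epiblast. Pax6 encodes a paired-box transcription factor of neuroectoderm, eye and neural progenitors. Nes and Vim encode the intermediate filament proteins nestin and vimentin, of neural progenitors and of many mesenchymal cells, and Tubb3 encodes the neuronal class III β-tubulin. mESC cultures in serum with LIF are known to be mixed, with a minority of cells that express epiblast or early lineage genes. In bulk RNA, fewer expressing cells and less RNA per cell cannot be told apart.

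The sequences upstream of 4 members are shown because the results turn on these genes: Pax6, Nes and Fgf5 differed between the lines once replicate set was in the fit, and Vim was skewed toward its Dom allele in both lines. They are the 250 bases before the RefSeq start, for Pax6 the first of its starts, on GRCm38.p6 and on the strand of the gene. The sequences are from the reference strain and not from 129/Sv or CAST/EiJ. RefSeq promoters were matched for 6 of the 7 members, all but Pou3f1. Capitals mark the matches, on either strand, to the TATA box (searched as TATAAA), the CCAAT box (searched by these letters), the GC box (searched as GGGCGG), the cAMP response element (searched as TGACGTCA), the octamer (searched as ATTTGCAT) and the OTX site (searched as TAATCC), and no matches overlapped.
Pax6: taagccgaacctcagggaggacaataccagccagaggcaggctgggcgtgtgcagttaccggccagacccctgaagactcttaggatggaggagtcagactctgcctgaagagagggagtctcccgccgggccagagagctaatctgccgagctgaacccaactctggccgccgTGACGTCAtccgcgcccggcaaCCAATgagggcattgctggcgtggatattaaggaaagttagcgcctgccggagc
Nes: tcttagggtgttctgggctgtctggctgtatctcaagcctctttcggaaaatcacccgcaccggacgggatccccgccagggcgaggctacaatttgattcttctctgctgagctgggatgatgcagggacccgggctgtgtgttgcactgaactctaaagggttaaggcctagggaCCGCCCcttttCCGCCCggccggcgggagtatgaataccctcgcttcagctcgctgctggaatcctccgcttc
Fgf5: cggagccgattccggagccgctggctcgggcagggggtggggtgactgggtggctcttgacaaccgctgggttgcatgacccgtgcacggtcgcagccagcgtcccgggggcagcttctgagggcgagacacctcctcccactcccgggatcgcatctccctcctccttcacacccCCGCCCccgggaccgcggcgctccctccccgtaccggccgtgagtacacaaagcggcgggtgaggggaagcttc
Vim: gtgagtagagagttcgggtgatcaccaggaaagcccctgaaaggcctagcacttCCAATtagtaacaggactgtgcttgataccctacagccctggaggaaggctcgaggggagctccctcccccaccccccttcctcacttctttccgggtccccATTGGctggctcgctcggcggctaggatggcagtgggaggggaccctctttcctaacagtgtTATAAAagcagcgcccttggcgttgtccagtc

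The Pax6 window (chr2:105668646-105668895, + strand) held 1 cAMP response element, starting 76 bases before the start, and 1 CCAAT box. The cAMP response element was found in 1.55% and the CCAAT box in 33.8% of 32851 windows of the same length. A further RefSeq start of Pax6 lies 13568 bases after the listed start, and its window, not shown, held no match to any motif searched. The Nes window (chr3:87970843-87971092, + strand) held 2 GC boxes and the Fgf5 window (chr5:98253934-98254183, + strand) held 1, a motif in 32.7% of windows. The Vim window (chr2:13574061-13574310, + strand) held a TATA box 32 bases before the start, a motif in 12.4% of windows, and 2 CCAAT boxes. None of the 4 windows held the octamer (1.6% of windows) or the OTX site (6.25%). These are matches of letters only.

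On mm10, as the count files list them, Pax6 lies at chr2:105668895-105697364 and Vim at chr2:13574310-13582826, Nes at chr3:87971092-87980451, Pou3f1 at chr4:124657645-124660655, Fgf5 at chr5:98254183-98277033, Tubb3 at chr8:123411563-123422010 and Otx2 at chr14:48657676-48667644. All but Otx2 are on the + strand. Counts covered the whole transcript, introns included, on the gene's strand. Only Pax6 overlapped another listed gene, Pax6os1 on the opposite strand, which had 4 to 14 fragments per library against 73 to 457 for Pax6. The Pax6 window printed above also lies within Pax6os1.

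Libraries held 14877384 to 24309806 counted fragments, of which 44.2% to 46.4% were assigned to an allele. Libraries of a line differed most between replicates 1-2 and replicates 3-4 (the replicate sets), and 30.3% of 15186 tested genes were called between the sets. Deviations from the line mean correlated across lines at 0.329, 0.275 and 0.466 for replicate numbers 1, 2 and 3, but also between Dom replicate 1 and Cast replicate 2 (0.384), so they followed the sets. For iXist-ChrX-Dom replicates 3 and 4, d1 stands in the description in place of the labelled 10 days, and for iXist-ChrX-Cast replicates 1 and 2 the files are named after another clone. The set is therefore mixed with these doubts and cannot be told apart from them. Set 3-4 holds 1 iXist-ChrX-Cast library.

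All 7 genes were detected in all 7 libraries and passed the filter on low counts. Levels are CPM, fragments of a gene per 1000000 counted, scaled by TMM, and levels are compared between genes only as CPM per kb of the counted gene. In CPM per kb, Vim was highest at 6.50 ± 0.925 (SD, n = 7), at the percentile 92.8 of tested genes, and Otx2 was next at 3.44 ± 0.572. These 2 genes were each above the next in 7 of 7 libraries. Nes (1.68 ± 0.612), Tubb3 (1.12 ± 0.245), Fgf5 (0.706 ± 0.346), Pou3f1 (0.568 ± 0.252) and Pax6 (0.383 ± 0.202) followed, with ranges that overlapped between neighbours. Nes was above Tubb3 in 5, Tubb3 above Fgf5 in 5, Fgf5 above Pou3f1 in 6 and Pou3f1 above Pax6 in 4 of 7 libraries. Pax6 stood at the percentile 36.1 on this scale.

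**Figure D1:**
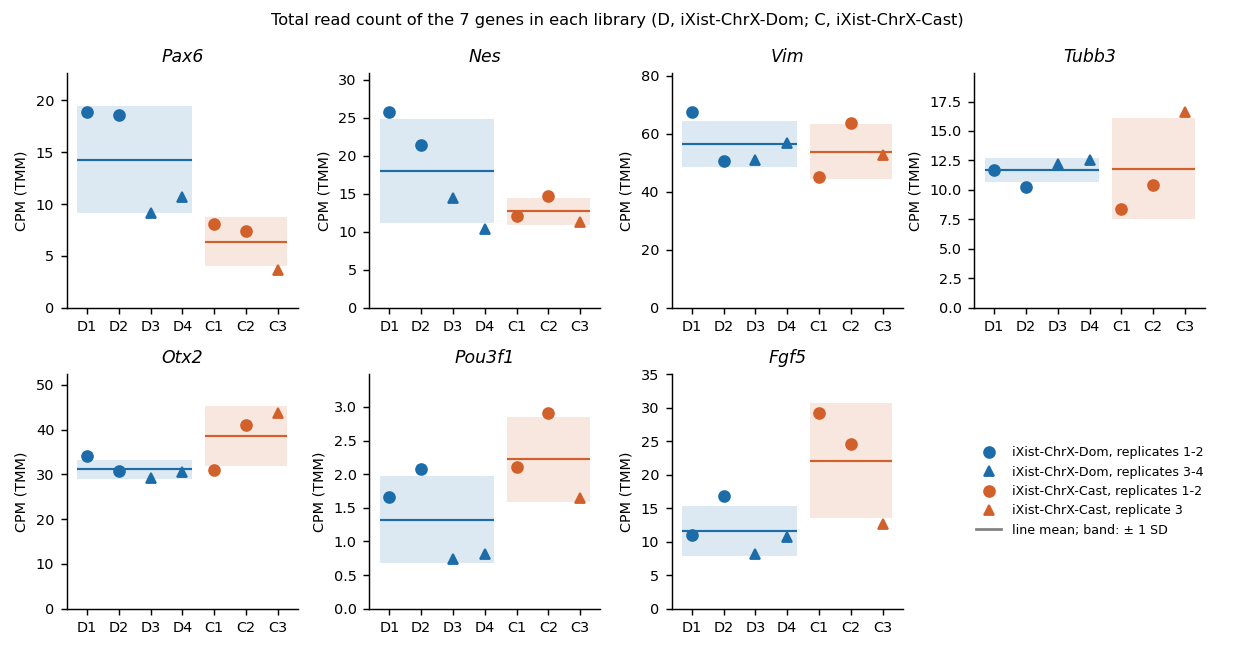
Each panel plots the CPM (linear axis from 0) of 1 gene in the 4 iXist-ChrX-Dom libraries (D1 to D4) and the 3 iXist-ChrX-Cast libraries (C1 to C3), with circles for replicates 1-2 and triangles for replicates 3-4, the line mean as a bar and ± 1 SD as a band. Pax6 is the gene whose lines do not overlap, with the lowest iXist-ChrX-Dom library at 9.12 and the highest iXist-ChrX-Cast library at 8.09 CPM.

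The first comparison asked whether the lines differed in these genes, with a gene called at a Benjamini-Hochberg adjusted p under 0.05 over all genes tested. With line alone in the fit, 0 of 7 members were called by edgeR's quasi-likelihood test (background 2.92% of 15186 genes, 1.2% higher in iXist-ChrX-Dom and 1.72% lower), 3 had an unadjusted p under 0.05, and DESeq2 called 2, Pax6 and Fgf5. With replicate set as a covariate edgeR called 3 (background 15.8%), Pax6 and Nes higher (background 7.51% for higher) and Fgf5 lower (background 8.28% for lower) in iXist-ChrX-Dom. The same 3 were called with replicate number as a block (background 11.8%) and within replicates 1-2 (background 11%). These fits share their libraries.

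Pax6 was at 18.9, 18.6, 9.12 and 10.7 CPM in replicates 1 to 4 of iXist-ChrX-Dom and at 8.09, 7.39 and 3.66 CPM in replicates 1 to 3 of iXist-ChrX-Cast. All iXist-ChrX-Dom libraries were above all iXist-ChrX-Cast libraries, and within each line replicates 1 and 2 were the high ones. It was the 1 member whose lines did not overlap, as was the case for 16% of tested genes. The log2 fold change was 1.18 ± 0.33 (SE; edgeR adjusted p = 0.0905), or 2.26-fold higher in iXist-ChrX-Dom. With replicate set it was 1.33 ± 0.13 (edgeR adjusted p = 1.27e-05), and with the replicate block 1.29 ± 0.16 (edgeR adjusted p = 2.13e-06). The median of the 1177 tested genes of chromosome 2 was 0.03. Without the libraries described as d1 the log2 fold change was 1.56 (edgeR adjusted p = 0.0612), and without those of the other clone name 1.97 (0.259), neither fit having replicate set.

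Nes was at 25.7, 21.5, 14.4 and 10.4 CPM in replicates 1 to 4 of iXist-ChrX-Dom and at 12.1, 14.7 and 11.3 CPM in replicates 1 to 3 of iXist-ChrX-Cast. The first 2 iXist-ChrX-Dom libraries were above all others, while replicates 3 and 4 lay within or below the range of iXist-ChrX-Cast, so the lines overlapped. The log2 fold change was 0.50 ± 0.28 with line alone (edgeR adjusted p = 0.382), 0.55 ± 0.16 with replicate set (edgeR adjusted p = 0.0278), 0.66 ± 0.15 with the replicate block (edgeR adjusted p = 0.00397) and 0.81 ± 0.17 within replicates 1-2 (edgeR adjusted p = 0.00886). For replicates 3-4, with 1 iXist-ChrX-Cast library and no test, the difference of mean log2 CPM was 0.11.

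Fgf5 was at 10.96, 16.8, 8.11 and 10.7 CPM in replicates 1 to 4 of iXist-ChrX-Dom and at 29.2, 24.6 and 12.6 CPM in replicates 1 to 3 of iXist-ChrX-Cast. The first 2 iXist-ChrX-Cast libraries were above all others and the third lay inside the iXist-ChrX-Dom range. The log2 fold change was -0.92 ± 0.30 with line alone (edgeR adjusted p = 0.133), -0.76 ± 0.16 with replicate set (edgeR adjusted p = 0.0048) and -0.87 ± 0.16 with the replicate block (edgeR adjusted p = 0.000438). Without iXist-ChrX-Cast replicate 3 it was -1.20 with line alone (edgeR adjusted p = 0.0171). Without the 2 iXist-ChrX-Cast libraries of the other clone name it was -0.11 (edgeR adjusted p = 0.912). The 964 tested genes of chromosome 5 had a median of -0.40 between the lines, and Fgf5 was at -0.51 relative to that median. With replicate set, where Fgf5 was called, the chromosome median was -0.41 and Fgf5 was at -0.34 relative to it.

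The other 2 epiblast factors also had lower values in iXist-ChrX-Dom, and neither was called in any of these fits. Otx2 was at 34.2, 30.8, 29.2 and 30.6 CPM in replicates 1 to 4 of iXist-ChrX-Dom and at 30.9, 40.9 and 43.6 CPM in replicates 1 to 3 of iXist-ChrX-Cast. Its lines overlapped through iXist-ChrX-Cast replicate 1 (log2 fold change -0.31 ± 0.14, edgeR adjusted p = 0.286), and chromosome 14 had a median of -0.17. Pou3f1 was at 1.67, 2.07, 0.747 and 0.816 CPM in iXist-ChrX-Dom and at 2.11, 2.91 and 1.65 CPM in iXist-ChrX-Cast, from 14 to 57 fragments per library. The lines overlapped (-0.72 ± 0.37, edgeR adjusted p = 0.357).

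Vim and Tubb3 had the differences nearest to 0. Vim was at 67.4, 50.5, 51.1 and 56.9 CPM in iXist-ChrX-Dom and at 45.0, 63.7 and 52.9 CPM in iXist-ChrX-Cast, ranges that overlapped in part (0.07 ± 0.15, edgeR adjusted p = 0.869). Tubb3 was at 11.7, 10.3, 12.2 and 12.6 CPM in iXist-ChrX-Dom, inside the range of the 3 iXist-ChrX-Cast libraries at 8.37, 10.4 and 16.6 CPM (-0.02 ± 0.22, edgeR adjusted p = 0.977). The 806 tested genes of chromosome 8, where Tubb3 lies, had a median of 0.35 between the lines.

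**Figure D2:**
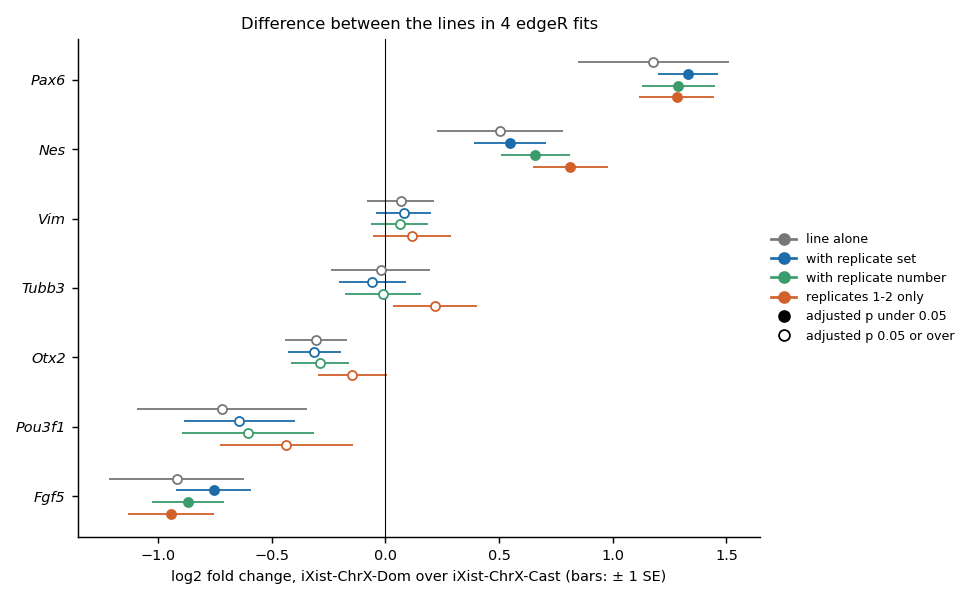
The log2 fold change between the lines (x axis, ± 1 SE) is plotted for each gene in 4 edgeR fits, with filled points for an adjusted p under 0.05. Pax6 and Nes lie to the right and Fgf5 to the left of 0, filled in the 3 fits that take replicate set or number into account or use replicates 1-2 only, and open with line alone.

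The second comparison set replicates 3-4 against replicates 1-2, with line as a covariate. In this fit 5 of 7 members were called (background 30.3%): Pax6, Nes, Pou3f1 and Fgf5 were lower (background 14% for lower) and Tubb3 higher (background 16.3%) in replicates 3-4. Within iXist-ChrX-Dom alone 3 were called, all lower (background 18.7% in either direction), namely Pax6, Nes and Pou3f1. Groups of libraries did not overlap for 2 members, Tubb3 and Pou3f1, against 29.4% of tested genes.

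Pax6, at 18.9 and 18.6 against 9.12 and 10.7 CPM in iXist-ChrX-Dom and 8.09 and 7.39 against 3.66 CPM in iXist-ChrX-Cast, changed by -0.97 ± 0.13 (edgeR adjusted p = 0.0001). It was lower in both lines, with -0.91 ± 0.14 in iXist-ChrX-Dom (edgeR adjusted p = 0.00189) and a difference of mean log2 CPM of -1.08 in iXist-ChrX-Cast, where no test was run. The interaction of line and set was 0.16 ± 0.28 (edgeR adjusted p = 0.876). Nes changed by -0.67 ± 0.16 (edgeR adjusted p = 0.00534). Its difference was -0.92 ± 0.17 in iXist-ChrX-Dom (edgeR adjusted p = 0.00369) and -0.24 in iXist-ChrX-Cast. The interaction was -0.68 ± 0.28 (edgeR adjusted p = 0.455), so the lines were not shown to differ in this.

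Among the epiblast genes, Pou3f1 was lower in replicates 3-4 (-0.96 ± 0.26, edgeR adjusted p = 0.0105), with all 3 libraries of that set, 0.747 to 1.65 CPM, below all 4 of the other, 1.67 to 2.91 CPM. Fgf5 was lower too (-0.78 ± 0.17, edgeR adjusted p = 0.00299). Without iXist-ChrX-Cast replicate 3 the Fgf5 call was lost (-0.56, edgeR adjusted p = 0.0614), as it was within iXist-ChrX-Dom alone (-0.56, edgeR adjusted p = 0.0753). Otx2 was at 0.04 ± 0.12 (edgeR adjusted p = 0.811). Its values differed in sign between the lines, at -0.11 in iXist-ChrX-Dom but 0.30 in iXist-ChrX-Cast, with an interaction of -0.40 ± 0.21 (edgeR adjusted p = 0.552).

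Tubb3 was higher in replicates 3-4 (0.43 ± 0.15, edgeR adjusted p = 0.035), with 12.2, 12.6 and 16.6 CPM above the 8.37 to 11.7 CPM of replicates 1-2. The call was lost without any 1 of the 3 iXist-ChrX-Cast libraries, at 0.34 (edgeR adjusted p = 0.0663) without replicate 1, 0.43 (0.0658) without replicate 2 and 0.17 (0.491) without replicate 3. Within iXist-ChrX-Dom alone Tubb3 was at 0.18 ± 0.15 (edgeR adjusted p = 0.425), and the difference of mean log2 CPM in iXist-ChrX-Cast, which rests on its 1 library of replicates 3-4, was 0.82. Vim was at -0.09 ± 0.12 (edgeR adjusted p = 0.589). For the interaction of line and set 0 of 7 members were called by edgeR (background 0.0132%) and 0 of the 6 with an adjusted p by DESeq2, and 2, Nes and Tubb3, had an unadjusted p under 0.05 in edgeR. This fit has 3 residual degrees of freedom.

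**Figure D3:**
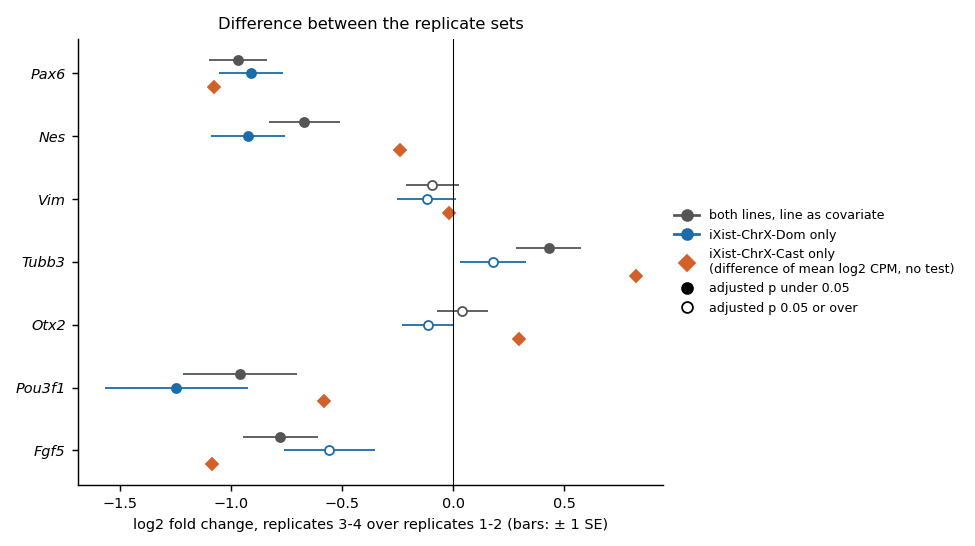
The log2 fold change of replicates 3-4 over replicates 1-2 (x axis, ± 1 SE) is plotted for both lines together, for iXist-ChrX-Dom alone and, as diamonds with no error, for iXist-ChrX-Cast alone; filled circles have an adjusted p under 0.05. Pax6, Nes, Pou3f1 and Fgf5 lie left of 0 in all 3 series, Tubb3 lies right of 0, and Otx2 lies on both sides.

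The alleles gave a view of the same RNA that does not depend on scaling between libraries. On the autosomes other than 1, 5, 8, 12 and 14, which were set aside with earlier results of these data known, the median Cast share of allelic fragments was 46.4% to 47.0% per library. Of the 7 members 6 had a mean of at least 20 allelic fragments per library. Pou3f1 had 2 to 9, which gives no usable share. The alleles of 5 members were called as unequal in iXist-ChrX-Dom (background 58.5% of 12311 genes) and of 4 in iXist-ChrX-Cast (background 53.5%), against that autosomal level. Toward Dom these were 2 members in iXist-ChrX-Dom, Pax6 and Vim (background 25%), and 1 in iXist-ChrX-Cast, Vim (background 24.6%), and the rest were toward Cast.

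Vim was the member called toward Dom in both lines. Its Cast share was 28.9%, 18.9%, 19.5% and 18.5% in replicates 1 to 4 of iXist-ChrX-Dom and 12.5%, 9.30% and 21.6% in replicates 1 to 3 of iXist-ChrX-Cast, from 401 to 906 allelic fragments. All 7 libraries were far below 46.4%, and iXist-ChrX-Dom replicate 1 stood above the rest (95% Wilson interval 26.1% to 32.0%, counting error only). The log2 odds of Cast (log2 of Cast over Dom fragments) were -1.65 ± 0.14 in iXist-ChrX-Dom (edgeR adjusted p = 9.96e-10) and -2.38 ± 0.18 in iXist-ChrX-Cast (edgeR adjusted p = 3.18e-10) relative to the autosomal level. The share was called higher in iXist-ChrX-Dom (0.73 ± 0.24, edgeR adjusted p = 0.0408). That call was lost without iXist-ChrX-Dom replicate 1 (0.48, edgeR adjusted p = 0.196), without iXist-ChrX-Dom replicate 3 (0.78, 0.0517), without iXist-ChrX-Cast replicate 1 (0.65, 0.124), without iXist-ChrX-Cast replicate 2 (0.35, 0.484), in limma (0.75, 0.291) and without the libraries of the other clone name (0.01, 0.994).

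Vimentin is also abundant in fibroblasts, on which the cells had been grown. The 18 genes of a feeder fibroblast list summed to 120 to 181 CPM in iXist-ChrX-Dom and 118 to 151 CPM in iXist-ChrX-Cast, and none was at 0 in every library. Their summed Cast share was 23.2% to 33.8% over the libraries and was highest in iXist-ChrX-Dom replicate 1, as it was for Vim. Of the 11 listed genes with at least 20 allelic fragments, 6 had a pooled Cast share under 30%, among them Col5a2 at 19.8% (50.1 CPM), and 4 were over 40%, among them Fbn1 at 40.3% (34.4 CPM), both genes named after their values were seen. The part of fibroblast RNA in the Vim shares was not tested.

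Fgf5 was skewed toward Cast. Its Cast share was 68.7%, 59.4%, 61.7% and 64.1% in iXist-ChrX-Dom but 75.8%, 78.7% and 71.2% in iXist-ChrX-Cast, with no overlap between the lines, from 94 to 305 allelic fragments. The log2 odds relative to the autosomal level were 0.96 ± 0.13 (edgeR adjusted p = 1.69e-06) and 1.85 ± 0.14 (edgeR adjusted p = 1.48e-10). Between the lines they differed by -0.88 ± 0.19 (edgeR adjusted p = 0.00145). Fgf5 and Vim were the 2 of 6 members called in that contrast (background 18.1%, of which 9.93% higher in iXist-ChrX-Dom and 8.15% lower), which also held with a replicate set term (background 19.9%). Without the iXist-ChrX-Cast libraries of the other clone name the Fgf5 difference was -0.53 (edgeR adjusted p = 0.396). The median Cast share of chromosome 5 also differed, at 45.9% ± 0.282 in iXist-ChrX-Dom but 63.7% ± 0.596 in iXist-ChrX-Cast. Relative to it Fgf5 was 17.6 percentage points higher in iXist-ChrX-Dom and 11.6 points higher in iXist-ChrX-Cast, so the order of the lines was the opposite on this scale.

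Tubb3 and Otx2 were skewed toward Cast in both lines. Tubb3 had a Cast share of 79.2%, 63.0%, 82.7% and 77.6% in iXist-ChrX-Dom and of 54.2%, 61.2% and 72.2% in iXist-ChrX-Cast, overlapping between the lines. Its log2 odds were 1.84 ± 0.21 (edgeR adjusted p = 1.13e-07) and 1.08 ± 0.24 (edgeR adjusted p = 0.00054) relative to the autosomal level, the second of which was 0.70 (edgeR adjusted p = 0.0519) without iXist-ChrX-Cast replicate 3. Between the lines they differed by 0.76 ± 0.33 (edgeR adjusted p = 0.135), a difference that was called without iXist-ChrX-Dom replicate 2 (1.07, 0.0162) or without iXist-ChrX-Cast replicate 3 (1.15, 0.0237). The median of chromosome 8 was 63.6% and 46.8%, so Tubb3 lay 12.04 and 15.68 points above its chromosome. Within iXist-ChrX-Cast that median was 45.3%, 45.2% and 50% in replicates 1 to 3. Otx2 had a Cast share of 60.5%, 63.5%, 63.9% and 66.1% in iXist-ChrX-Dom and of 57.3%, 61.3% and 63.3% in iXist-ChrX-Cast, ranges that overlapped (0.14 ± 0.20, edgeR adjusted p = 0.790). Its log2 odds were 0.99 ± 0.14 (edgeR adjusted p = 2.17e-06) and 0.85 ± 0.14 (edgeR adjusted p = 3.19e-05). It lay 16.1 and 8.23 points above the median of chromosome 14. Only 12.7% to 21.9% of Otx2 fragments were allelic.

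Pax6 and Nes were closest to the autosomal level. Pax6 had a Cast share of 36.8%, 41.6%, 40.3% and 39.7% in iXist-ChrX-Dom, called toward Dom (-0.42 ± 0.14, edgeR adjusted p = 0.0147), and of 50%, 42.9% and 50% in iXist-ChrX-Cast, from 24 to 56 fragments and not called (0.01 ± 0.25, edgeR adjusted p = 0.998). The difference between the lines was not called (-0.42 ± 0.29, edgeR adjusted p = 0.467), and the call in iXist-ChrX-Dom was lost without its replicate 1 (-0.34, edgeR adjusted p = 0.103). Nes had a Cast share of 44.7%, 46.2%, 50.9% and 50% in iXist-ChrX-Dom, or 47.9% ± 2.96 (SD, n = 4), and of 46.3%, 49.7% and 46.0% in iXist-ChrX-Cast, or 47.4% ± 2.05 (SD, n = 3), with 118 to 389 allelic fragments. It was called in neither line, and the difference between the lines was -0.03 ± 0.17 (edgeR adjusted p = 0.959).

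**Figure D4:**
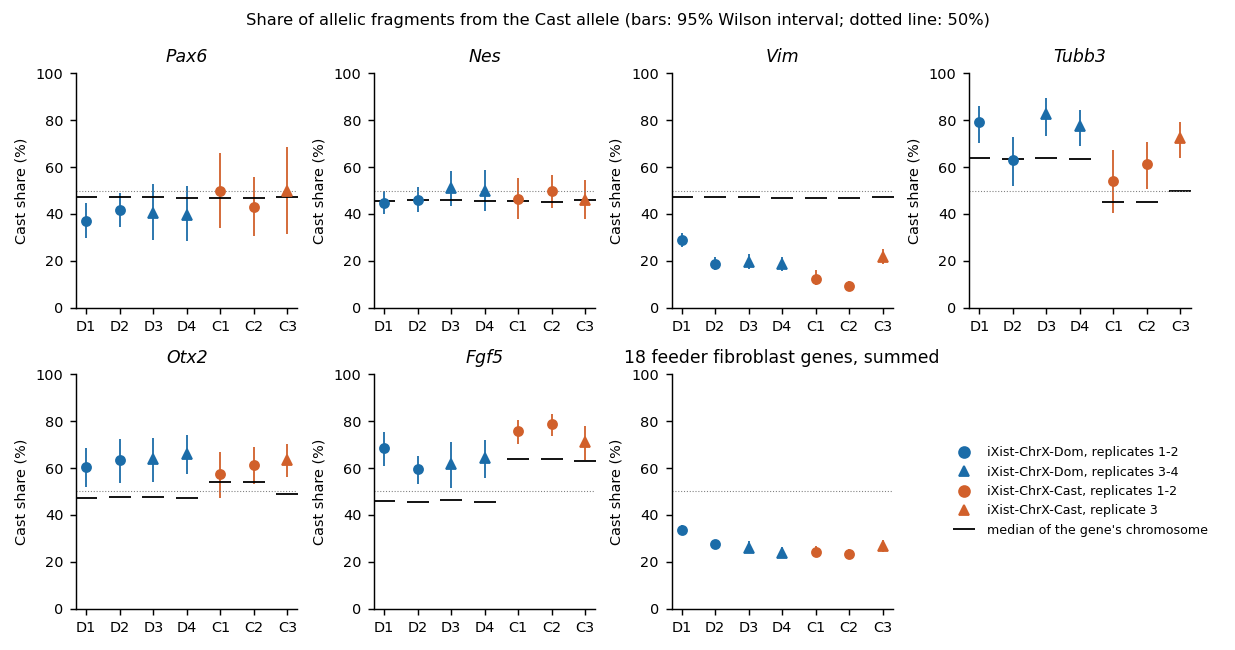
The share of allelic fragments from Cast (y axis, 0 to 100%, 95% Wilson intervals) is plotted for 6 genes and for the sum of 18 feeder fibroblast genes in each library, with the median of the gene's chromosome as a dash and 50% as a dotted line. Vim and the fibroblast sum lie below 34% in all 7 libraries, and Fgf5 and Tubb3 move between the lines in the direction in which their chromosome medians move.

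Fragments of each allele were also fitted separately between the lines. With replicate set as a covariate, Pax6 was higher in iXist-ChrX-Dom from both alleles, at 1.12 ± 0.25 for Cast fragments (edgeR adjusted p = 0.00109; background 23.1%) and 1.57 ± 0.22 for Dom fragments (edgeR adjusted p = 1.17e-05; background 11.8%). Otx2 was lower from both, at -0.60 ± 0.18 (edgeR adjusted p = 0.0128) and -0.71 ± 0.21 (edgeR adjusted p = 0.0252). In total counts with replicate set, however, Otx2 was at -0.31 ± 0.11 and not called (edgeR adjusted p = 0.0778). The part of Otx2 fragments assigned to an allele also differed, at 12.7% to 20.2% in iXist-ChrX-Dom and 18.7% to 21.9% in iXist-ChrX-Cast. Fgf5 was lower from the Cast allele (-1.05 ± 0.16, edgeR adjusted p = 1.06e-05) and was at -0.19 ± 0.22 from the Dom allele (edgeR adjusted p = 0.653). In allelic CPM, Fgf5 from Cast was 4.52 ± 1.27 (SD, n = 4) in iXist-ChrX-Dom and 10.5 ± 4.45 (SD, n = 3) in iXist-ChrX-Cast, and from Dom 2.65 ± 1.07 and 3.32 ± 1.11. With line alone only Fgf5 from Cast was called (-1.23 ± 0.30, edgeR adjusted p = 0.013; background 14.9%) and no member from Dom (0 by edgeR, 3 with an unadjusted p under 0.05; background 4.87%).

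**Figure D5:**
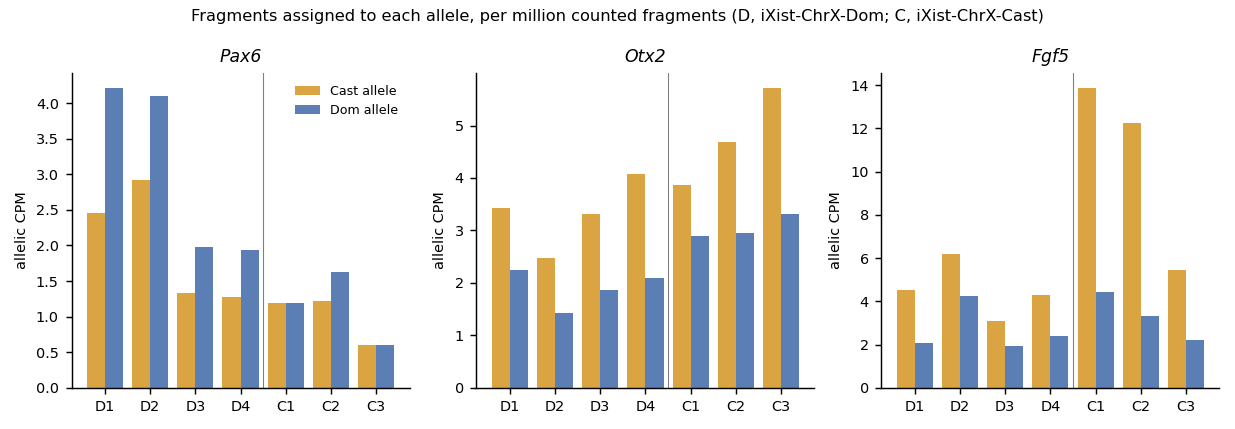
Fragments assigned to the Cast and Dom alleles of Pax6, Otx2 and Fgf5 (y axis, in CPM, from 0) are plotted as bars for each library. In Fgf5 the Cast bars of C1 and C2 are the tallest, at 13.9 and 12.2, while the Dom bars of all libraries lie between 1.92 and 4.43. The bars are not corrected for the Cast share of the gene's chromosome, which for chromosome 5 was higher in iXist-ChrX-Cast.

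Other genes of the same states were read from lists of markers. Of 16 primed and formative epiblast genes, 15 were tested and 0 were called between the lines with line alone, and 4, all lower, with replicate set (background 15.8%, of which 8.28% lower). Between the sets 5 were lower and 2 higher in replicates 3-4 (background 30.3%, of which 14% lower and 16.3% higher), with a list median of -0.09 against 0.01 over all genes tested. Sall2 (-1.01, edgeR adjusted p = 0.000281), Zic5 (-0.84, 0.000207), Zic2 (-0.81, 0.00105) and Sox4 (-0.62, 0.00325), which encode zinc finger and SOX transcription factors, were the largest. The 2 that were higher, named after their values were seen, were Nodal (0.61, edgeR adjusted p = 0.00111), a TGF-β family ligand, and Tcf15 (0.56, 0.00764), a transcription factor. Dnmt3b, a de novo DNA methyltransferase, had the highest level of the list (5.67 CPM per kb), was at 219 and 214 CPM in the lines and was not called in either comparison.

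Of 31 neural progenitor and neuron genes, 17 were tested. Sox1 and Sox2 were listed at 0 in every library. Sox2 lies within Sox2ot on the same strand, so its 0 is uncertain, and a count of 0 for Sox1 allows up to 3 fragments per library, for counting error only. The proneural gene Neurog2 and the glial genes Olig2 and Fabp7, named after their values were seen, were each under 0.1 CPM in both lines. They do not stand for the list, of which 16 of 31 genes had a mean of at least 1 CPM. Its genes summed to 1144 to 1256 CPM in iXist-ChrX-Dom and 1112 to 1432 CPM in iXist-ChrX-Cast. Between the lines the list median was -0.31 with line alone, but -0.10 with replicate set and -0.11 with the replicate block. With replicate set 7 genes of the list were lower in iXist-ChrX-Dom, the opposite direction to Pax6 and Nes, and 2 were higher (background 8.28% and 7.51%), and with the replicate block 5 were lower and 2 higher. Gbx2, a homeobox factor (-1.25, edgeR adjusted p = 0.00127), was among the lower ones, and the 2 higher ones, named after their values were seen, were the Hedgehog pathway factor Gli3 (0.41, 0.00489) and Map2 (0.36, 0.0211). Between the sets 5 were called, a share near the background of 30.3%, all lower in replicates 3-4 (background 14% for lower), led by Sox11 (-1.20, edgeR adjusted p = 7.13e-06), Gbx2 (-0.84, 0.0126), the Notch target Hes1 (-0.59, 0.021) and the microtubule gene Map2 (-0.40, 0.00655). The list median between the sets was -0.33.

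Of 13 naive pluripotency genes, all tested, 1 was called between the lines with line alone (background 2.92%, of which 1.72% lower). It was the T-box factor Tbx3, at 132 CPM in iXist-ChrX-Cast and lower, at 63.2 CPM, in the other line (-1.06, edgeR adjusted p = 0.00316). With replicate set 5 were lower and 1, Zfp42, was higher in iXist-ChrX-Dom (background 8.28% and 7.51%), and with the replicate block 5 were lower and 0 higher. Genes of this and the other lists, Tbx3 included, were not set against the medians of their chromosomes. With line alone those medians reached -0.40 for chromosome 5 and 0.35 for chromosome 8. Between the sets 4 were called, a share near the background of 30.3%. Of these 3 were higher in replicates 3-4, Pou5f1 (0.50, edgeR adjusted p = 0.00525), Klf2 (0.40, 0.0341) and Zfp42 (0.35, 0.00707), and 1, Nr0b1, was lower (-0.60, 0.00184). Zfp42 and Pou5f1 were the highest of the list at 38.6 and 16.4 CPM per kb, above every member of the 7 on that scale. Of 10 primitive endoderm genes 8 were tested, of which 5 were higher and 1 lower in replicates 3-4 (background 16.3% and 14%), with summed levels of 309 to 446 CPM in replicates 1-2 and 483 to 555 CPM in replicates 3-4. The 18 fibroblast genes summed to 148 to 181 CPM and 118 to 138 CPM in these sets. Of the 17 tested, 3 were called higher and 3 lower in replicates 3-4, with a list median of -0.10. The part of such cells in the differences of the 7 genes between the sets was not tested. The 8 mesoderm genes summed to 9.08 to 12.8 CPM, and the 10 genes of other tissues that use Pax6, such as lens and pancreas, to 1.06 to 2.304 CPM.

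The nearest genes did not all follow the members. Elp4, downstream of Pax6 on the opposite strand, was at 189 and 181 CPM in the lines (0.06, edgeR adjusted p = 0.800). Otx2os1, on the opposite strand next to Otx2, was at 20.3 and 20.5 CPM (-0.02, edgeR adjusted p = 0.978), and was higher in replicates 3-4 (0.48, edgeR adjusted p = 0.00938). Beyond Otx2, Tmem260 was lower in iXist-ChrX-Dom (-0.64, edgeR adjusted p = 0.0498). Next to Fgf5, 1700007G11Rik was at -0.48 (edgeR adjusted p = 0.148). These values between the lines are from the fit with line alone. With replicate set 1700007G11Rik was called lower, as Fgf5 was (-0.51, edgeR adjusted p = 0.0174), where the median of chromosome 5 was -0.41. In that fit Tmem260 was also lower (-0.59, 0.00257), and Elp4 (0.07, 0.652) and Otx2os1 (-0.07, 0.780) were not called. Mc1r, 819 bases before Tubb3 on the same strand, had 2 to 14 fragments per library.

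The genes whose log2 CPM followed a member most closely over the 7 libraries, by Pearson's r among 10722 genes of at least 5 CPM, were Fat3 (0.992) and Mir8115 (0.989) for Pax6, Car8 (0.975) and Ddx28 (0.971) for Nes, and Otud7b (0.970) and Stmn1 (0.938) for Vim. For Tubb3 they were Rps15 (0.989) and Mvd (0.986), for Otx2 Mif (0.967) and Mrpl2 (0.964), and for Fgf5 Clvs2 (0.987) and Cdadc1 (0.977). Among 10723 genes they were Cnpy1 (0.995) and 9430083A17Rik (0.978) for Pou3f1. The 7 libraries fall into 2 lines and 2 sets and share these, so such values describe a shared order of libraries only.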

How the data were processed

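ChrRNA-seq counts of 7 libraries were analysed, grouped by the line in the labels. Ribosomal RNA reads were removed by the authors (bowtie2 2.3.2), who aligned with STAR 2.4.2a to mm10 with strain polymorphisms masked, assigned alleles with SNPsplit and deposited raw fragment counts from featureCounts 1.5.2, per the file headers counted by strand over whole transcripts. Listed starts of Pax6, Nes, Vim and Fgf5 are 1 base before the RefSeq starts of the windows shown. The deposited tables of allelic fractions hold X-linked genes only; their values served to check that the first allelic column is Cast.

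Total counts were tested with edgeR 4.0.16 (TMM, filterByExpr, quasi-likelihood, two-sided, Benjamini-Hochberg at 0.05 over all genes). Allelic counts (mean of at least 20 per library) were fitted as 14 columns with sample terms and a Cast term per line. The replicate block was fitted because every same-numbered pair correlated above 0.1. Pairs of unlike number within a set did so too, such as iXist-ChrX-Dom replicate 4 with iXist-ChrX-Cast replicate 3 (0.505). A pairing by number was therefore not shown, and iXist-ChrX-Dom replicate 4 has no partner in this block. The fit with the block leaves fewer residual degrees of freedom than the interaction fit. Alternatives were DESeq2 1.42.0, limma 3.58.1, other scalings, filters and left-out libraries. Scripts were tested on simulated data with known changes. True log2 differences of 1 were found in 92% (lines), 87.8% (sets), 57.6% (interaction) and 21% (Cast share between the lines) of changed genes. False calls were 6.44%, 7.58%, 5.44% and 3.51% of calls. The spread of the simulated shares was set and not taken from these data. A Cast share not called between the lines is therefore not shown to be equal. Named genes were the 7 members, of each list the called genes of largest change (up to 4 per comparison) and the 2 highest per kb, neighbours, and the 2 genes of most similar pattern. Members, lists and tests were chosen with earlier results of these data known. The labels do not say whether replicates are separate cultures, so p-values measure the spread between libraries only. Fragments carry no molecular identifiers, and intervals cover counting error only. Some genes of the marker lists are not reported here.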

Additional observations from a re-analysis of the deposited data

Results flagged for a closer look

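The Cast share of Vim in iXist-ChrX-Dom was the 1 value of the 13 examined (CPM of 7 members, Cast share of 6) in which a library stood apart from the others of its group. Replicate 1 at 28.9% lay away from 18.9%, 19.5% and 18.5%, and its gap to the nearest was 0.902 of the group's range, above Dixon's 95% limit for 4 samples. About 1 in 20 groups would pass that limit by chance. In the same library Vim was highest in CPM (67.4) and the fibroblast list was highest in its sum (181 CPM) and in its Cast share (33.8%). Their part in the Vim value was not tested.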

How the results depend on the processing

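Against 0 members called between the lines in the fit with line alone, DESeq2 called 2, the replicate block 3, replicate set as covariate 3, replicates 1-2 alone 3, Cast fragments 1, Cast fragments with set 3 and Dom fragments with set 2. Leaving out 1 library gave 0 to 1, the 1 being Fgf5 without iXist-ChrX-Cast replicate 3. Listed genes called between the lines went from 2 to 9 (DESeq2), 20 (replicate block), 22 (set), 18 (replicates 1-2), 1 (without the d1 libraries), 0 (without the other clone name) and 1 to 6 (1 library left out: 6 without iXist-ChrX-Cast replicate 3, 1 without iXist-ChrX-Dom replicate 2, 3 or 4 or iXist-ChrX-Cast replicate 1 or 2). Between the sets 3 members were called in iXist-ChrX-Dom alone and 3 to 5 with 1 library left out, 3 without iXist-ChrX-Cast replicate 3. The Cast share between the lines gave 1 member in limma, 1 at a mean of 50 fragments, 0 without the other clone name and 1 to 3 with 1 library left out; the replicate block gave 2, as before. The block changed no other call of a member in these 2 comparisons, and was not run for the allelic imbalance within a line or for single alleles.

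Signs turned mostly for values near 0. Between the lines, Vim was at -0.10 in Dom fragments (-0.0939 with set) and -0.0405 to 0.21 with 1 library left out, and Tubb3 at 0.22 in replicates 1-2, 0.0586 in Cast fragments and -0.21 to 0.31 with 1 left out. Between the sets, Otx2 was at -0.11 in iXist-ChrX-Dom alone and -0.12 to 0.12 with 1 left out, and Vim -0.18 to 0.0259. The Vim interaction ran from -0.34 to 0.15. The log2 odds of Cast of Nes between the lines were 0.0315 in limma, 0.0633 without the other clone name and -0.0804 to 0.0558 with 1 left out. Within iXist-ChrX-Dom those of Nes were -0.16 against 50% and -0.0208 to 0.10 with 1 left out. Within iXist-ChrX-Cast they were -0.14 and -0.0298 to 0.11 for Nes, and -0.20 and -0.0826 to 0.19 for Pax6. Relative to the chromosome median the Fgf5 share differed by 5.98 percentage points in place of -11.8. The cause was not tested, other than that the median of chromosome 5 itself differed between the lines. The fits of single alleles and those without the d1 libraries or the other clone name were chosen after seeing the data. The interaction could not be fitted without iXist-ChrX-Cast replicate 3. Depth limits Pou3f1 most, with 14 to 57 fragments.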
